A study of Danio rerio with 48 samples.

Results

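The genes described here belong to the hormonal stress axis and to the response to glucocorticoids in the zebrafish brain. They are 9 of the 32520 genes in the count tables and were chosen by name, not by how they behaved: crhb, crhbp, crhr1, pomca, nr3c1, nr3c2, hsd11b2, fkbp5 and tsc22d3. Each name matched 1 Ensembl ID, and 2 of them, crhb (ENSDARG00000027657) and pomca (ENSDARG00000043135), appear in the name table without their final letter, as CRH and POMC. All 9 had enough reads to be tested in every comparison.

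RNA of whole brains was sequenced from adult zebrafish of the AB laboratory line, males and females, in 3 generations. The founders (F0) had met the pyrethroid insecticide permethrin at 10 µg/L early in life or served as controls, and their F1 and F2 offspring were not exposed. Each generation held 4 libraries per sex with the code PH, read here as the permethrin lineage, and 4 with the code SCA, read as the control line; the labels do not spell out either code. No source used here tells how the lines were crossed or which fish shared a tank or parents. A p-value therefore reflects variation among the libraries of its fit, part of which may be technical. In the main fits these were the 16 of 1 generation or all 48. Libraries are named below by generation, sex, code and the number in their label, as in F1_F_PH 1, a female of the F1 permethrin lineage.

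In fish, neurons of the preoptic area release corticotropin-releasing hormone, which drives the pituitary to cut adrenocorticotropin from its precursor, pro-opiomelanocortin. Adrenocorticotropin makes the interrenal tissue, the fish counterpart of the adrenal cortex, secrete cortisol. Cortisol enters cells, binds the glucocorticoid and mineralocorticoid receptors and switches on target genes, several of which brake the response in turn. Permethrin itself is known as an agent that holds voltage-gated sodium channels open.

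Counts in genes ran from 4802827 in F1_F_PH 1 to 10032850 per library, a total over all genes. The counting error of a value depends on the reads of that gene in that library. Levels are given in CPM, the usual unit of counts scaled by library total, here with scaling factors over all 48 libraries. CPM takes no account of transcript length, so levels were compared between fish and not between genes. A gene was called when its edgeR quasi-likelihood p, adjusted over all genes of a fit by Benjamini-Hochberg, was under 0.05, and fold changes are log2 values with their standard error (SE). Markers of neurons (16 of 16), oligodendrocytes (9 of 9), radial glia (9 of 11), microglia (6 of 7) and the hypothalamus and preoptic area (14 of 15) had a median of at least 1 CPM. In whole tissue, fewer cells of a type and less RNA per cell cannot be told apart. By the lane numbers in the data names, F0 libraries ran on lane 4 except F0_M_SCA on lane 2. F2 libraries ran on lane 3 except F2_F_PH 3 and 4 on lane 2, and F1 names carry no lane. Generation and sequencing lane therefore cannot be told apart in comparisons between generations.

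Among the 9 genes, fkbp5 and hsd11b2 stood apart from the rest. Both were lower in unexposed descendants of the permethrin lineage than in control descendants, and neither was called in the exposed founders, where both had higher means in PH fish. In the main fits, fkbp5 and hsd11b2 passed between PH and SCA fish only over F1 and F2 together, not within either generation. The receptors, the releasing hormone, its binding protein and receptor, the hormone precursor and tsc22d3 were not called there or in any single generation. Of these, pomca was called in no comparison, and the others were called between generations or, for nr3c1 and crhr1, also between the sexes of 1 generation. DESeq2 and a fit over all 48 libraries did call crhb in F1, as given below.

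**Figure D1:**
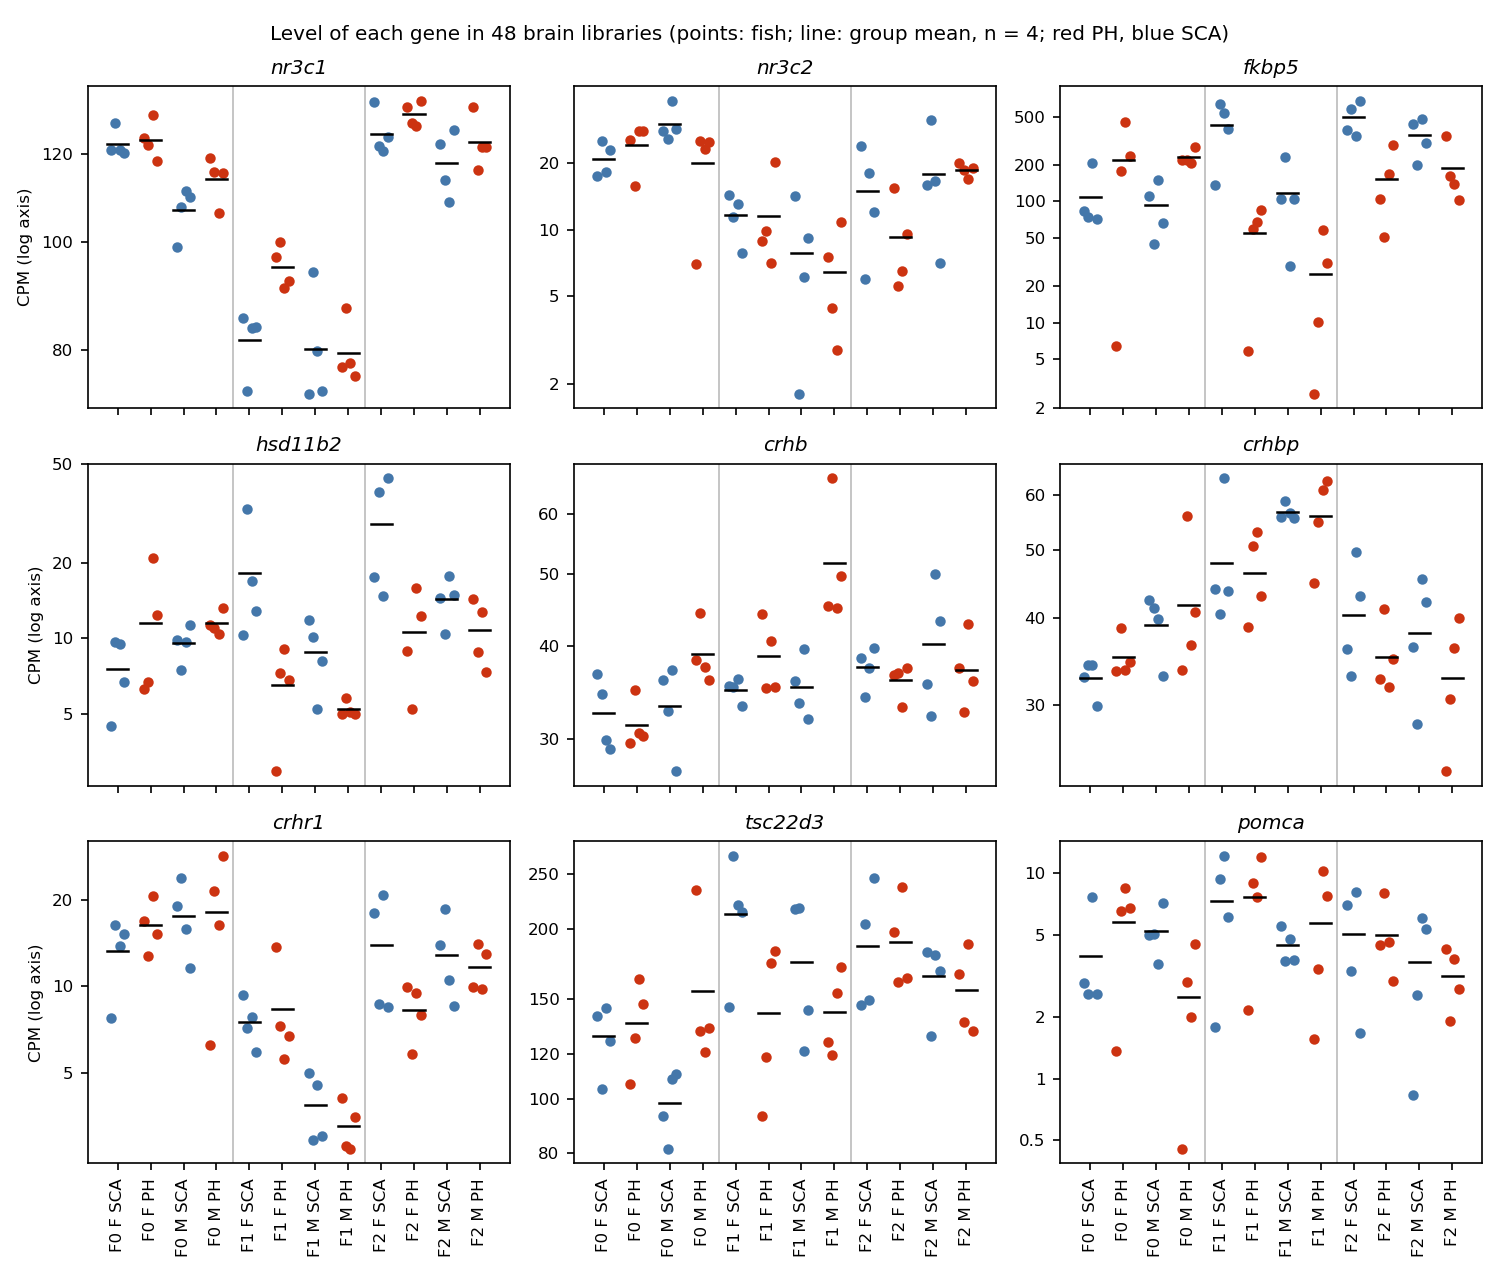
Level of each of the 9 genes in every library in CPM on log axes, by generation, sex (F, M) and code; points are single fish, red PH and blue SCA, and lines are means of 4. The points of fkbp5 spread from 2.61 to 676 CPM, those of nr3c1 only from 73.1 to 134, with nr3c1 lowest in the F1 groups.

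The gene crhb encodes corticotropin-releasing hormone, which starts the cascade. It ranged from 27.2 to 67.1 CPM over the 48 fish. Its paralogue crha had a median of 0.612 CPM and 0 reads in 4 libraries. In F1 males, the 4 PH fish held 45.0, 45.2, 49.6 and 67.1 CPM of crhb and the 4 SCA fish 32.0, 33.5, 35.9 and 39.7. Every PH male thus lay above every SCA male, and F1_M_PH 6 was the highest library of the study. The log2 fold change was 0.55 ± 0.13 and did not pass (edgeR adjusted p = 0.127), in a comparison where groups did not overlap in 4.43% of genes and 0.105% were called. DESeq2 and a fit over all 48 libraries did call it, at adjusted p of 0.0156 and 0.0197. They were the only 2 of 22 alternatives to do so, and adjusted p reached 0.387 in the others.

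In F1 females, crhb lay between 35.2 and 44.1 CPM in the 4 PH fish and between 33.3 and 36.1 in the 4 SCA fish, and the groups overlapped. Over both sexes of F1 the log2 fold change was 0.34 ± 0.09 (edgeR adjusted p = 0.0904; 0.68% of genes called), and the 2 alternatives named above called it at 0.03 and 0.0183. No other of the 21 alternatives did, and adjusted p reached 0.181. In F2, PH fish had 36.6 ± 3.12 CPM and SCA fish 38.9 ± 5.60 (SD, n = 8 each). F0 fish had 35.2 ± 5.01 and 32.9 ± 3.78 CPM.

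Markers of the hypothalamus and preoptic area, where these neurons lie, had higher means in F1 PH males for 13 of 15 genes, with a median log2 fold change of 0.51 and 0 called. Their summed level was 438 to 990 CPM in F1_M_PH against 233 to 438 in F1_M_SCA. Among them, oxt, the precursor of isotocin, the fish oxytocin, and avp, that of vasotocin, had log2 fold changes of 0.89 ± 0.38 and 0.51 ± 0.23 over both sexes of F1, neither called (edgeR adjusted p = 0.384 and 0.425). The part of this shift in the crhb values was not tested.

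The binding protein gene crhbp (ENSDARG00000024831) encodes a secreted protein that captures the releasing hormone. Its lineage contrasts were small, with log2 fold changes over both sexes of 0.08 ± 0.09 in F0, -0.04 ± 0.10 in F1 and -0.22 ± 0.12 in F2, none called. It differed between F0 and F1 fish instead, in comparisons that called 43% of all genes in controls and 46.1% in PH fish. Lane and generation cannot be told apart there. F1 controls held 40.4, 55.7 and 63.4 CPM as lowest, median and highest of 8, against 29.9, 34.2 and 42.4 in F0 controls. The ranges met only between 40.4 and 42.4 CPM, and the log2 fold change of 0.54 ± 0.11 passed (edgeR adjusted p = 0.000135). PH fish of F1 were higher than those of F0 by 0.41 ± 0.11 (edgeR adjusted p = 0.00219), and F2 fish of neither arm were called.

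The receptor gene crhr1 (ENSDARG00000003989) encodes the main receptor of the releasing hormone in brain and pituitary. F1 females held 5.57 to 13.7 CPM with a median of 7.21, and F1 males 2.71 to 4.96 with a median of 3.25 (n = 8 each). All 8 females lay above all 8 males. The log2 fold change was 1.15 ± 0.20 in favour of females (edgeR adjusted p = 0.0117), where 3.45% of genes were called and groups did not overlap in 0.37%. The call held in each of 16 fits that left out 1 library, at adjusted p of 0.00845 to 0.0316. The counts behind it were small, from 21 to 83 reads per library.

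In the same comparison, 9 of 10 tested eye and photoreceptor markers had higher means in F1 females, 4 of them called, with summed levels of 23.5 to 430 CPM in females and 23.6 to 54.5 in males. The part of that tissue in the crhr1 result was not tested. No such difference in crhr1 was called in F0, at 14.8 ± 3.71 CPM in females and 17.8 ± 6.99 in males, nor in F2, at 11.1 ± 5.29 and 12.3 ± 3.24 (SD, n = 8 each). Whether the sex difference itself differed between generations was not tested. Levels of crhr1 were lower in F1 than in F0 in both arms, with log2 fold changes of -1.49 ± 0.24 in controls and -1.74 ± 0.24 in the permethrin lineage (edgeR adjusted p = 3.25e-06 and 1.96e-07). Those comparisons called 43% and 46.1% of all genes. In F2, crhr1 was lower than in F0 in PH fish, at -0.81 ± 0.23 (edgeR adjusted p = 0.00656), where 32.3% of genes were called. It was not called in F2 controls, at -0.18 ± 0.23 (10.8% of genes called). Lane and generation cannot be told apart in these comparisons.

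The precursor gene pomca is transcribed in pituitary corticotropes and melanotropes and in hypothalamic neurons that curb feeding. It was scarce here, from 0.455 CPM (3 reads, F0_M_PH 12) to 12.1 CPM, and its group means ran from 2.48 CPM in F0_M_PH to 7.66 in F1_F_PH. Variation between fish of a group was large, with a median coefficient of variation of 56.9%. None of the 21 comparisons called it. The paralogue pomcb had a median of 2.02 CPM. Among pituitary markers, gh1, the growth hormone gene, was listed at 0 in 40 of 48 libraries, tshba in 36 and lhx3 in 38, and prl, the prolactin gene, reached 1.82 CPM at most.

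The glucocorticoid receptor gene nr3c1 (ENSDARG00000025032) was the steadiest of the 9. Zebrafish carry a single gene for this receptor, which brings cortisol's signal to DNA. Its median coefficient of variation within groups was 4.97%, and its highest level was 1.83 times its lowest. F1 fish of both arms were lower than F0 fish. The 8 F1 controls held 73.1 to 94.0 CPM with a median of 81.8, and the 8 F0 controls 99.0 to 128 with a median of 116. In the permethrin lineage the F1 fish held 75.8 to 99.9 CPM and the F0 fish 106 to 130. Within each arm the generations did not overlap, as in 9.15% of genes for controls and 8.9% for the lineage, and the log2 fold changes were -0.50 ± 0.05 and -0.45 ± 0.05 (edgeR adjusted p = 6.41e-11 and 6.06e-10). These comparisons called 43% and 46.1% of all genes, and lane and generation cannot be told apart in them. F2 fish held 109 to 134 CPM and were not called against F0 in either arm.

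Females of F0 held 118, 122 and 130 CPM of nr3c1 as lowest, median and highest of 8, and F0 males 99.0, 110 and 119. The ranges met in less than 1 CPM, and females were higher at a log2 difference of 0.18 ± 0.04 (edgeR adjusted p = 0.022; 4.85% of genes called). The 4 F0_M_SCA libraries ran on lane 2 and all other F0 libraries on lane 4. In PH fish alone, all of lane 4, the log2 fold change was 0.14 and was not called (edgeR adjusted p = 0.442). The call was also lost without F0_F_SCA 18, F0_M_PH 12 and F0_M_SCA 6, libraries that earlier work on these data found apart from their groups (0.0618). It was lost as well on leaving out F0_F_PH 15, F0_F_SCA 15, F0_M_PH 19 or F0_M_SCA 2 alone (0.0522 to 0.0564), and with no filter on low counts (0.0668). Oligodendrocyte markers moved in the other direction in these fish, 6 of 9 being called lower in F0 females, with summed levels of 6769 to 11338 CPM against 9325 to 21987 in males. Their part in the nr3c1 result was not tested.

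In F1 females alone, nr3c1 stood at 91.0, 92.3, 96.9 and 99.9 CPM in PH fish and at 73.5, 83.7, 83.8 and 85.3 in SCA fish, without overlap. Groups did not overlap in 5.54% of genes in that comparison. The log2 fold change of 0.21 ± 0.09 did not pass (edgeR adjusted p = 0.604; 0.0663% of genes called), and F1 males had 79.5 ± 5.22 against 80.1 ± 9.76 CPM (SD, n = 4 each). Over F1 and F2 together it was 0.08 ± 0.03 (edgeR adjusted p = 0.127), and it passed only without F1_M_SCA 14 (0.0463).

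The mineralocorticoid receptor gene nr3c2 (ENSDARG00000102082) encodes the other cortisol receptor of fish, which binds the hormone with high affinity. Its levels spread widely between fish, from 1.80 CPM (13 reads, F1_M_SCA 14) to 38.4, with a median coefficient of variation of 45.8%. F0 controls held 17.4 to 38.4 CPM and F1 controls 1.80 to 14.3, without overlap, as in 9.15% of genes. The log2 fold change was -1.39 ± 0.31 (edgeR adjusted p = 0.000449). It was -1.36 ± 0.32 in the permethrin lineage (edgeR adjusted p = 0.000545), where F0_M_PH 12, at 6.98 CPM, lay among the F1 fish. These comparisons called 43% of all genes in controls and 46.1% in the lineage, and lane and generation cannot be told apart in them. PH fish of F2 were not called against F0, at -0.75 ± 0.31 (edgeR adjusted p = 0.0596). That value passed with DESeq2 (0.0411), without the libraries that stood apart (0.032) and on leaving out any of 9 single libraries (0.0173 to 0.049), the lowest of them without F0_M_PH 12. The 9 include F2_F_SCA 6, F2_M_SCA 5 and 10, F1_F_PH 10 and F1_M_SCA 5 and 14. Those fish are outside this contrast and enter it only through the shared fit. F0 males had 6.98, 23.3, 24.9 and 25.3 CPM in PH and 25.8, 27.9, 28.6 and 38.4 in SCA fish, again without overlap, as in 3.55% of genes. That log2 fold change of -0.59 ± 0.30 did not pass (edgeR adjusted p = 0.838; 0% of genes called), and lane and arm cannot be told apart there.

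The enzyme gene hsd11b2 (ENSDARG00000001975) encodes 11-beta-hydroxysteroid dehydrogenase type 2, which turns cortisol into inactive cortisone and so shields receptors from it. In F1 females, PH fish held 2.94, 6.80, 7.29 and 9.10 CPM (15 to 85 reads) and SCA fish 10.3, 12.8, 16.9 and 33.0 (92 to 227 reads). No PH female reached the lowest SCA female, in a comparison where groups did not overlap in 5.54% of genes. F1 males of the permethrin lineage held 5.003, 5.01, 5.07 and 5.80 CPM, a narrow band, and SCA males 5.23, 8.09, 10.1 and 11.8. Here F1_M_PH 6, at 5.80 CPM, lay above F1_M_SCA 10, the lowest SCA male.

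In F2, hsd11b2 stood at 5.24, 8.94, 12.3 and 15.98 CPM in PH females and 14.8, 17.7, 38.4 and 43.8 in SCA females. Only F2_F_PH 5 reached into the SCA range. The PH females lowest in hsd11b2, F2_F_PH 4 and then F2_F_PH 3, ran on lane 2 and all other F2 fish on lane 3. F2 males held 7.36, 8.82, 12.7 and 14.3 CPM in PH and 10.5, 14.5, 14.96 and 17.8 in SCA fish, with more overlap. Founders differed in the other direction in their means, at 11.6 ± 4.54 CPM in PH and 8.59 ± 2.22 in SCA fish (SD, n = 8 each), and overlapped.

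Over F1 and F2 together, hsd11b2 was lower in the permethrin lineage, with a mean of 8.29 ± 3.77 against 17.5 ± 11.1 CPM (SD over 16 fish each). The log2 fold change of -1.01 ± 0.19 passed (edgeR adjusted p = 0.00129). In that comparison 4.61% of all genes were called, 2.26% as lower. The call held in all 55 alternatives run, with log2 fold changes of -1.09 to -0.91 and adjusted p of 1.66e-05 to 0.00896. These include leaving out each F0 fish in turn, and F0 fish enter this contrast only through the shared fit. Taken 1 generation at a time, the contrast over both sexes did not pass in F1, at -1.11 ± 0.25 (edgeR adjusted p = 0.0506; 0.68% of genes called), or in F2, at -0.94 ± 0.26 (0.0823; 1.1% called). DESeq2 called it in both (adjusted p = 0.00203 and 0.0142), as did a fit over all 48 libraries (0.0199 and 0.0372). In all, 4 of 21 alternatives called hsd11b2 in F1 and 2 of 23 in F2, with adjusted p up to 0.113 and 0.181. The log2 fold changes of F1 females and males were -1.45 ± 0.35 and -0.76 ± 0.36 and those of F2 -1.45 ± 0.36 and -0.43 ± 0.37, none called in the main fits (0.137% and 0.0171% of genes called in F2 females and males). In F1 females 1 of 22 alternatives called hsd11b2, DESeq2 (adjusted p = 0.0104). In F2 females 2 of 24 did, DESeq2 (0.0117) and the fit over all libraries (0.044). Those 24 values ran from -1.715 to -1.04, 1 of them with lane as a covariate. The difference between the sexes was not called in either generation (edgeR adjusted p = 0.946 and 0.83; 0% and 0.0114% of genes called, with 924 and 993 genes at an unadjusted p under 0.05).

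The co-chaperone gene fkbp5 (ENSDARG00000028396) is switched on by cortisol through its receptor, and its protein lowers that receptor's affinity for the hormone in a short feedback loop. It was the most variable of the 9, from 2.61 CPM (25 reads, F1_M_PH 4) to 676 (F2_F_SCA 9), a span of 259-fold, with a median coefficient of variation within groups of 59.1%. F1 females of the permethrin lineage held 5.89, 59.0, 68.0 and 85.0 CPM, against 137, 396, 538 and 638 in SCA females. The groups did not overlap, as in 5.54% of genes, and F1_F_PH 1, the shallowest library, was far below the other PH females. F1 males held 2.61, 10.1, 31.0 and 57.6 CPM in PH and 29.4, 105, 105 and 232 in SCA fish. F1_M_SCA 10 lay among the PH males.

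F2 females of the permethrin lineage held 51.2, 105, 169 and 290 CPM of fkbp5 and SCA females 344, 388, 573 and 676, once more without overlap, as in 9.17% of genes. The PH females with the lowest values, F2_F_PH 4 and then F2_F_PH 3, ran on lane 2 and all other F2 fish on lane 3. Over 24 alternatives, with lane as a covariate in 1, the log2 fold change of F2 females was -2.21 to -1.13. Only DESeq2 called it (adjusted p = 0.0358). F2 males held 102, 140, 161 and 346 CPM in PH and 199, 301, 431 and 476 in SCA fish, where F2_M_PH 11 lay within the SCA range. In founders the means stood the other way round. Exposed F0 males held 208, 220, 220 and 280 CPM, all above the 44.8, 66.6, 111 and 150 of SCA males. Exposed F0 females held 6.40, 177, 238 and 447 CPM and SCA females 70.9, 74.1, 83.4 and 206, with F0_F_PH 10 the lowest of the founders.

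Over F1 and F2 together, PH fish held 2.61, 76.5 and 346 CPM of fkbp5 as lowest, median and highest, and SCA fish 29.4, 366 and 676. The ranges overlapped, but the median of SCA fish exceeded the highest PH fish. The gene was lower in the lineage, with a mean of 105 ± 98.2 against 348 ± 201 CPM (SD over 16 fish each) and a log2 difference of -1.94 ± 0.38 (edgeR adjusted p = 0.00266). It was called in all 55 alternatives, with log2 fold changes of -2.17 to -1.77 and adjusted p of 3.55e-05 to 0.0165, among them fits without the 2 lowest libraries and without the 2 F2 libraries of lane 2. Here too, some alternatives left out 1 F0 fish, which enters this contrast only through the shared fit. Within F1 the contrast over both sexes was -2.59 ± 0.64 (edgeR adjusted p = 0.101) and within F2 -1.32 ± 0.33 (0.0614), neither passing. DESeq2 called both, at 0.00368 and 0.0122, the fit over all libraries called that of F1 (0.00662), and limma voom that of F2 (0.0456). In all, 2 of 21 alternatives called fkbp5 in F1 and 4 of 23 in F2, with adjusted p up to 0.207 and 0.142.

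In the founders, the fkbp5 contrast over both sexes was 1.14 ± 0.54 (edgeR adjusted p = 0.678), the F0 males alone 1.30 ± 0.76 (0.875) and the F0 females 0.98 ± 0.76 (1). edgeR called 0 genes in each of these 3 comparisons (0% called), with 1348, 1096 and 921 genes at an unadjusted p under 0.05, and DESeq2 and limma voom called none of the 9 genes there. The groups of F0 males did not overlap in 3.55% of genes. Lane 2 held all control males and no PH male, so the founder contrast in males and the lane cannot be told apart.

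A single test asked whether the contrast of PH against SCA over both sexes differed between the 3 generations, and called 0.939% of genes. It called fkbp5 (edgeR adjusted p = 0.0173) and hsd11b2 (0.0387) among the 9. Relative to F0, the contrast was shifted by -3.74 in F1 and -2.46 in F2 for fkbp5, and by -1.54 and -1.36 for hsd11b2, on the log2 scale. The F0 contrast includes the males, in which lane and arm cannot be told apart. The other members had adjusted p of 0.131 (crhb) to 0.971 (nr3c2). The call of fkbp5 held in 52 of 54 alternatives and was lost with limma voom (0.0778) and without the 6 libraries that stood apart (0.105), F0_F_SCA 18, F0_M_PH 12, F0_M_SCA 6, F1_F_PH 1, F2_F_SCA 8 and F2_M_PH 11. That of hsd11b2 held in 30 of 54, was lost without the same 6 libraries (0.131) and was lost on leaving out any of 19 single libraries (0.0502 to 0.106). These were F0_F_PH 15 and 16, F0_M_PH 17 and 22, F0_F_SCA 14 and 18, F0_M_SCA 2, 6 and 10, F1_F_PH 1, F1_M_PH 4 and 6, F1_M_SCA 5, 12 and 14, F2_F_PH 3, F2_M_PH 12, F2_F_SCA 6 and F2_M_SCA 7.

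**Figure D2:**
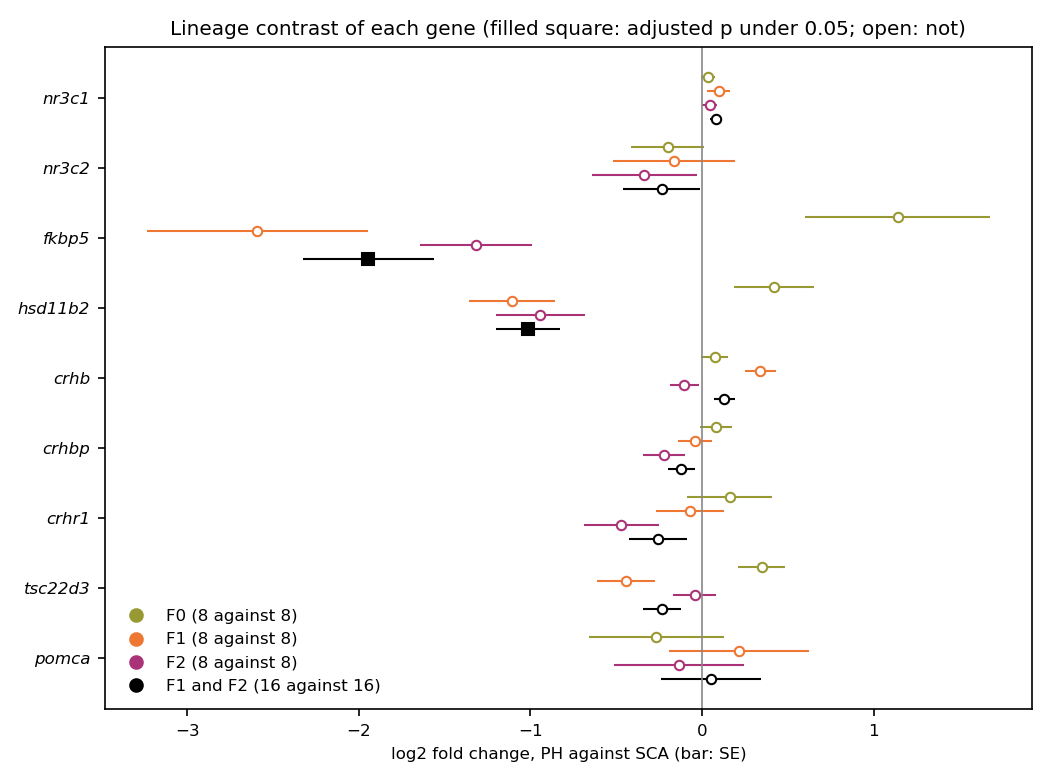
Log2 fold change of PH against SCA for each gene over both sexes in F0, F1 and F2 (8 against 8 libraries each) and over F1 and F2 together (16 against 16), with bars of 1 SE; filled squares passed the adjusted p of 0.05. For fkbp5 the values run from 1.14 in F0 to -2.59 in F1 and -1.32 in F2, and only fkbp5 and hsd11b2 pass, in the joint comparison of descendants.

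The distance between the arms in descendants can also be read against the founders, with the same control fish entering both views. Control fish held 101 ± 53.2 CPM of fkbp5 in F0, 273 ± 225 in F1 and 424 ± 152 in F2 (SD, n = 8 each). PH fish held 224 ± 121, 39.9 ± 31.7 and 171 ± 99.7. F2 controls were higher than F0 controls, at a log2 difference of 2.05 ± 0.53 (edgeR adjusted p = 0.0131; 10.8% of genes called), and F1 controls were not called (1.16 ± 0.52, edgeR adjusted p = 0.0712; 43% of genes called). PH fish of F1 were lower than PH founders, at -2.59 ± 0.55 (edgeR adjusted p = 0.000233; 46.1% of genes called), and PH fish of F2 were not called (-0.40 ± 0.51, 0.584; 32.3% of genes called). The F1 control value passed on leaving out F0_F_PH 10, F0_F_SCA 16, F1_F_SCA 4 or F1_M_SCA 10 (0.04 to 0.0496). Of these, F0_F_PH 10 is not a control fish and enters that value only through the shared fit.

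The same reading for hsd11b2 gave F2 controls higher than F0 controls by 1.25 ± 0.26 (edgeR adjusted p = 0.00226), F1 controls not called at 0.57 ± 0.26 (0.0785; 0.0465 without F1_F_SCA 4), F1 PH fish lower at -0.97 ± 0.27 (0.00321) and F2 PH fish not called at -0.11 ± 0.26 (0.774). For both genes the calls were made in F2 for controls and in F1 for the lineage. Within each arm, F0 and F2 libraries ran on different lanes, and F1 names carry no lane. Generation and sequencing lane therefore cannot be told apart in these comparisons. The share of read pairs that fell in genes was 32.1 to 34.0% in F0, 34.8 to 36.6% in F1 and 31.4 to 32.7% in F2.

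The target gene tsc22d3 (ENSDARG00000075666) encodes GILZ, a glucocorticoid-induced leucine zipper protein that dampens inflammatory signalling in mammals. In F0 males, PH fish held 121, 132, 133 and 234 CPM and SCA fish 81.5, 93.0, 108 and 111, without overlap, as in 3.55% of genes. The log2 fold change of 0.63 ± 0.19 did not pass (edgeR adjusted p = 0.734). It lay between 0.30 and 0.75 over 24 alternatives, with 0 calls. Lane and arm cannot be told apart in F0 males. The highest of these fish, F0_M_PH 12, is also the one lowest in nr3c2, crhr1 and pomca among its group. Exposed F0 females, at 136 ± 24.4 CPM, and SCA females, at 129 ± 18.3, overlapped (SD, n = 4 each).

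In F1, tsc22d3 had means of 142 ± 32.4 CPM in PH and 193 ± 50.7 in SCA fish (SD, n = 8 each), and its log2 fold change of -0.44 ± 0.17 did not pass (edgeR adjusted p = 0.312). In F2 the arms were close, at 173 ± 34.3 and 175 ± 36.8 CPM (-0.04 ± 0.12, edgeR adjusted p = 0.855). Over F1 and F2 together tsc22d3 was not called, nor in any of 55 alternatives (log2 fold changes of -0.27 to -0.19, adjusted p of 0.126 to 0.274). Control fish of both descendant generations were higher than F0 controls, with 114 ± 22.1 CPM in F0, 193 ± 50.7 in F1 and 175 ± 36.8 in F2. Against F0 these were log2 fold changes of 0.77 ± 0.16 and 0.64 ± 0.16 (edgeR adjusted p = 0.000121 and 0.00853), in comparisons that called 43% and 10.8% of all genes. PH fish were not called in either descendant generation, at -0.03 ± 0.16 and 0.24 ± 0.16.

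Counted over the 9 genes, the controls differed from F0 in 5 in F1 (43% of all genes) and 3 in F2 (10.8%). In the permethrin lineage the count was 7 in F1 (46.1%) and 1 in F2, crhr1 (32.3%). These comparisons share fish, since each arm has 1 set of founders and the lineage contrasts in descendants use the same F1 and F2 fish. With so large a share of all genes called between generations, the members' counts are read against those shares only. Besides the genes given above, crhb was called higher in F1 PH fish than in F0 PH fish, by 0.35 ± 0.08 (edgeR adjusted p = 0.000731), and not in control fish, at 0.09 ± 0.09. The difference between these 2 contrasts is part of the test of generations above, where crhb did not pass. Between the sexes, 1 of 9 genes was called in F0 (4.85% of all genes), 1 in F1 (3.45%) and 0 in F2 (0.114%).

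In the order of the 12 group means, neighbouring groups overlapped for every gene but 2. F1_F_PH lay apart from F1_F_SCA in nr3c1, and F1_F_SCA from F1_M_SCA in crhr1. The highest group mean was that of F2_F_SCA for fkbp5 (495 ± 156 CPM) and hsd11b2 (28.7 ± 14.6), and the lowest was that of F1_M_PH for both (25.3 ± 24.7 and 5.22 ± 0.388; SD, n = 4). Both genes had F1_F_SCA and F2_M_SCA next below the top, and F1_F_PH next to the bottom. The order of nr3c1 ran by generation, with F2 and F0 groups above all F1 groups.

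A list of 42 zebrafish genes with a record of induction by glucocorticoids, in fish or mammals, holds fkbp5 and tsc22d3, and 38 of them were tested. This list and those below were chosen with earlier results of these data known, so their shares are descriptions and not tests. Over F1 and F2 together, 11 of the 38 (28.9%), fkbp5 among them, were lower in the permethrin lineage and 0 higher, where 4.61% of all genes were called. The median log2 fold change of the list was -0.08 and that of all genes 0.00. The transcription factor KLF9 had the largest fold change of the list, at 7.32 against 45.6 CPM (-2.62 ± 0.33, edgeR adjusted p = 9.1e-06). IRS2 (ENSDARG00000075282), an adaptor of the insulin receptor, stood at -0.63 ± 0.08, and PDK2 (ENSDARG00000020876), a kinase that restrains pyruvate dehydrogenase, at -0.58 ± 0.10. LPIN1, a phosphatidate phosphatase, had -0.39 ± 0.07 and foxo3b, a forkhead factor of the fasting response, -0.38 ± 0.09. DUSP1, which switches off MAP kinases, stood at -0.64 ± 0.13 and CEBPD, a transcription factor of acute stress, at -0.93 ± 0.22, with edgeR adjusted p of 0.00385 and 0.0141. The remaining called genes were nfkbiab, ERRFI1 and SESN1, at -0.59 to -0.18.

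KLF9 ran from 0.504 to 111 CPM over the 48 fish, and was lowest in F1_M_PH (0.504 to 3.18 CPM). Other textbook targets on the list were not called, among them sgk1, the serum- and glucocorticoid-regulated kinase, at -0.01, and the clock gene PER1 (ENSDARG00000012499 and ENSDARG00000056885; edgeR adjusted p = 0.995 and 0.855). Within F1, 4 of the 38 were called lower (KLF9, IRS2, foxo3b and LPIN1; 10.5%, against 0.68% of all genes). Within F2, 5 were lower and 2 higher (18.4%, against 1.1%). The higher ones were both PER1 genes, at 0.64 ± 0.12 and 1.05 ± 0.23 (edgeR adjusted p = 0.0212 and 0.0406), and the lower ones IRS2, PDK2, KLF9, SESN1 and PDK4. In F0, 0 of 38 were called.

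**Figure D3:**
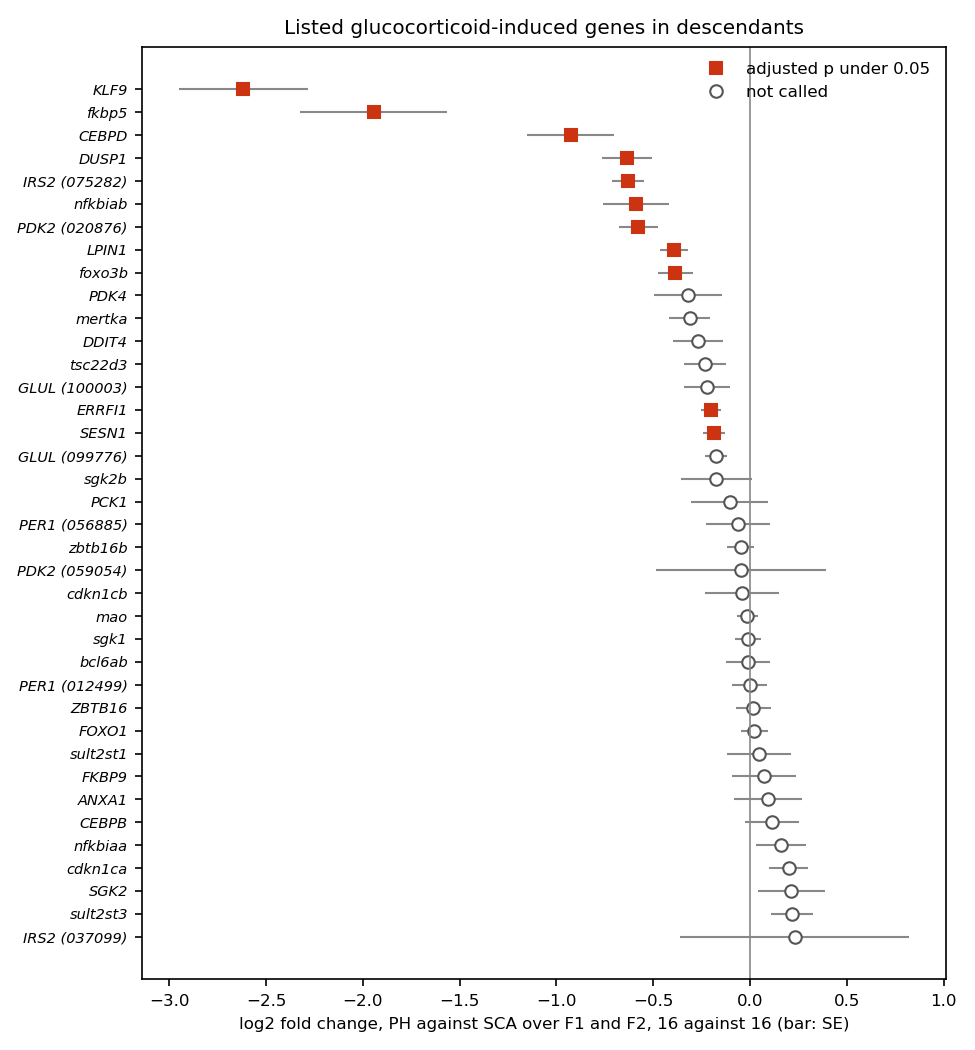
Log2 fold change of PH against SCA over F1 and F2 together for the 38 tested genes of the glucocorticoid-induced list, with bars of 1 SE; red squares passed the adjusted p of 0.05, open circles did not, and digits in brackets are the ends of Ensembl IDs that share a symbol. All 11 called genes lie below 0, with KLF9 at -2.62 and fkbp5 at -1.94, while 27 of 38 lie below 0 in all. The list was chosen with earlier results of these data known.

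Clock genes and markers of adhering tissue were counted in the same comparison. Of 33 clock genes tested, 2 were higher and 6 lower in descendants of the permethrin lineage (24.2%, against 4.61% of all genes), and 18 of 33 were called in the test of generations (54.5%, against 0.939%). Of 11 tested eye and photoreceptor markers, 11 had lower means (median -1.27) and 0 were called, with summed levels of 14.7 to 261 CPM in PH and 17.8 to 430 in SCA fish. Skeletal muscle markers had lower means in 10 of 11 (median -0.82), 0 called, with summed levels of 9.13 to 48.5 CPM in PH fish and 13.5 to 1194 in SCA fish. The upper end is 1 library of F2_F_SCA, a group with a median of 17.8 CPM, and the other SCA groups of descendants reached at most 44.4. In F2 females, erythrocyte markers summed to 291 to 370 CPM in PH and 235 to 251 in SCA fish. Interrenal and kidney markers summed to 15.7 to 18.2 CPM in the same PH fish and 11.8 to 14.1 in the SCA fish. In F1 fish and F2 males the arms overlapped in both sums. The part of time of day or of adhering tissue in the fkbp5 and hsd11b2 results was not tested. Both genes were still called in descendants without the 6 libraries that stood apart, a fit that was not a test of time of day or adhering tissue. Neuron markers had 8 of 16 means on each side, with 0 called.

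The axis list held 20 tested genes of ligands, receptors and hormone processing. In descendants, 1 of 20 was called (5%, near the 4.61% of all genes), PCSK1, the convertase that cuts pro-opiomelanocortin into adrenocorticotropin, which was lower at 11.98 against 25.5 CPM (-1.09 ± 0.30, edgeR adjusted p = 0.032). The median of the list was -0.13. Of 13 genes of steroid synthesis and inactivation, hsd11b2 was the 1 called (7.69%), and of 27 receptor chaperones and co-factors fkbp5 was the 1 called (3.7%), shares also near that of all genes. In the test of generations, FKBP4, which carries the receptor along microtubules and opposes FKBP5, and HSP90B1, the chaperone of the endoplasmic reticulum, were called besides fkbp5 (edgeR adjusted p = 0.00252 and 0.0131), 11.1% of that list against 0.939% of all genes. Neither was called in descendants. In F0 and within F1 and F2, no gene of these 3 lists passed between PH and SCA fish over both sexes.

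Fish of 1 group differed among themselves, and some genes deviated together. The deviation of each fish from the mean of its group was compared between genes over the 48 libraries, as Pearson's r of log2 CPM. The points share library and depth, and the values are descriptions without a test. Among the members, fkbp5, hsd11b2 and tsc22d3 ran together: r was 0.64 for fkbp5 with hsd11b2, 0.62 for fkbp5 with tsc22d3 and 0.67 for hsd11b2 with tsc22d3. Among 17705 genes, tsc22d3 ranked 4 in likeness to hsd11b2 and fkbp5 ranked 12. In likeness to fkbp5, hsd11b2 ranked 58 and tsc22d3 ranked 72. In likeness to tsc22d3, hsd11b2 ranked 28 and fkbp5 ranked 85. The glucocorticoid receptor gene nr3c1 had an r of 0.005 with fkbp5, -0.05 with hsd11b2 and -0.06 with tsc22d3.

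The ligand crhb and its binding protein crhbp had an r of 0.42, and nr3c2 with crhr1 one of 0.61. In likeness to nr3c2, crhr1 ranked 1046 of 17705 genes. The pair of tsc22d3 and crhr1 ran in opposite directions, at -0.57. For fkbp5 with pomca r was 0.54. Fish far below their group in both were F0_F_PH 10 (-3.99 and -1.66), F1_F_PH 1 (-2.635 and -1.49) and F1_M_PH 4 (-2.41 and -1.42). A control fish, F1_F_SCA 4, was also low in both (-1.43 and -1.62). Among the fish in which the 2 genes went opposite ways were F2_F_PH 4 (-1.31 and 0.73), F2_F_SCA 9 (0.50 and -1.24) and F2_M_SCA 3 (0.37 and -1.57). For this pair r was not computed without the most distant fish, and pomca had few reads.

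Outside the members, and among 15013 genes of at least 1 CPM on average with a proper symbol, the 3 genes most like fkbp5 were pik3r3a, a regulatory subunit of phosphoinositide 3-kinase (r = 0.90), KLF9 (0.88) and USP2, a deubiquitinase (0.86). Spearman's rho for these was 0.88, 0.82 and 0.85, and r without the 2 most distant fish 0.86, 0.81 and 0.83. For tsc22d3 they were TOB1, an antiproliferative factor (0.88), USP2 (0.79) and IP6K2, an inositol phosphate kinase (0.78). For hsd11b2 they were mcl1b, a survival factor (0.69), nt5dc2 (0.68) and tsc22d3 itself (0.67).

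Those most like pomca were 3 neuropeptide genes: pdyn, the dynorphin precursor (0.84), agrp, the agouti-related peptide (0.81), and pmchl, a melanin-concentrating hormone precursor (0.81). For nr3c2 they were mtus2a (0.91), the potassium channel kcnc3a (0.90) and SH2D3C (0.89), and for crhr1 the receptor GPR158 (0.80), rbm14a (0.80) and the kinase MAPK9 (0.78). Likeness was weaker for the steady genes, at most 0.66 for nr3c1 (PPM1K), 0.63 for crhbp (TMEM216) and 0.59 for crhb (SPCS2).

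**Figure D4:**
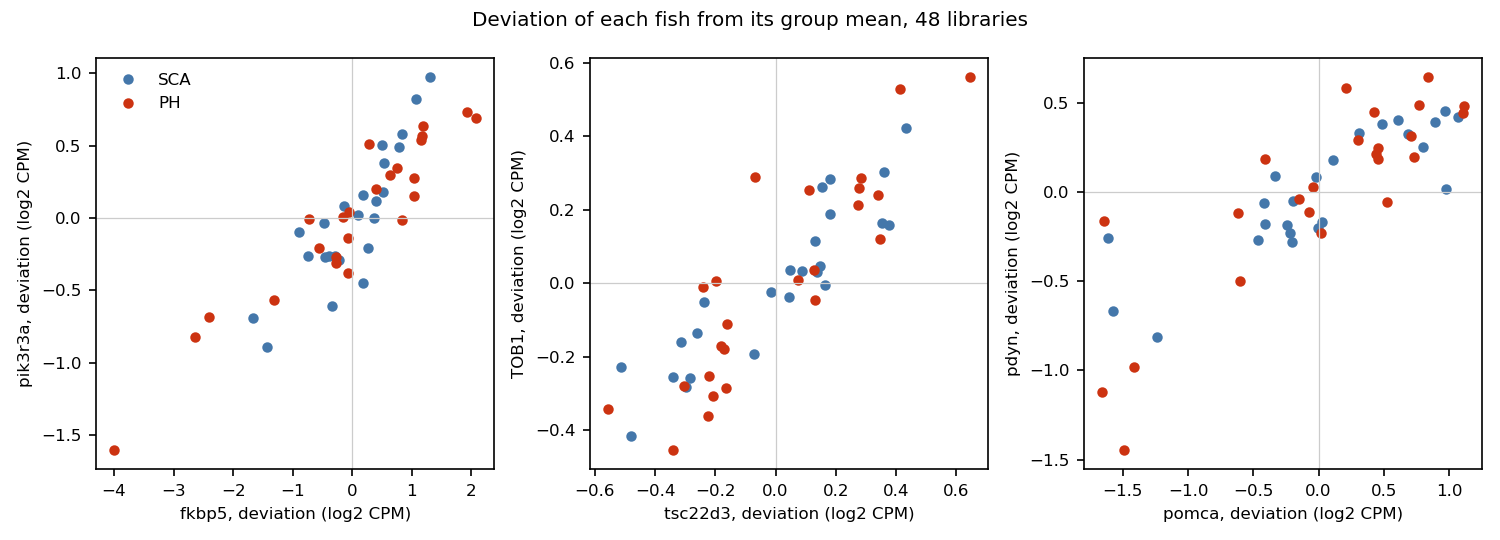
Deviation of each fish from its group mean in log2 CPM for fkbp5, tsc22d3 and pomca (x axes) and the gene most like each (y axes: pik3r3a, TOB1 and pdyn); points are the 48 libraries, red PH and blue SCA. Fish of both arms lie along 1 band in each panel, with r of 0.90, 0.88 and 0.84.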

How the data were processed

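The authors deposited raw read counts per Ensembl gene, 1 file per library. STAR 2.7, HTSeq 0.11.2, DESeq2 1.24.0 and the build GRCz11 are named, per the submitters' processing notes. RNA came from dissected, frozen brains and was sequenced as read pairs on a BGI instrument, per the labels' protocols. No source used here gives the strand setting or annotation release, so overlapping and antisense genes cannot be told apart. The 5 summary lines of each file were dropped first: 31.4 to 36.6% of read pairs fell in genes. Names came from a reference table that names 29201 of 32520 IDs, often in human spelling.

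With edgeR 4.0.16 in R 4.3.3 (filterByExpr, TMM, robust glmQLFit, glmQLFTest), 4 group means were fitted to the 16 libraries of each generation (18081 genes in F0, 18094 in F1, 17505 in F2), and 12 group means to all 48 libraries (19062 genes) for descendants, the test of generations (2 degrees of freedom) and the generation contrasts. Levels are CPM on TMM factors over 48 libraries. Likeness used log2 CPM with a prior count of 2. Standard errors came from the F statistic. The scripts were tested on simulated data. No 2 libraries of a group were duplicates (lowest chi-square per degree of freedom 4.44).

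Alternatives were RLE factors, no filter, DESeq2 1.42.0, limma voom (limma 3.58.1), all libraries or 1 sex in the fit, lane, a block of shared numbers, and leaving out libraries. All 9 members are named, as are called list genes (up to 8 by smallest p) and up to 3 genes most like each member. Where fewer than 3 genes of a list were called, the plan named the 3 of smallest p. Those among them that were not called are left out here. The genes sgk1, PER1 in descendants, oxt, avp and the last called targets were added after values were seen. Members, lists and alternatives were chosen with earlier results of these data known. Protein and promoter sequences were not used here. A pituitary marker of the lists is not reported here.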

Additional observations from a re-analysis of the deposited data

Results flagged for a closer look

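In 10 of 108 pairs of a gene and a group of 4 fish, 1 fish lay far from the other 3 by Dixon's criterion. For normally distributed values chance meets it in about 1 of 20 groups, here 5.4. CPM need not be normally distributed and the genes share fish, so 5.4 is only a rough guide. Low fish were F0_M_PH 12 in nr3c2, at 6.98 CPM against 23.3 to 25.3, and F1_F_SCA 6 in nr3c1, at 73.5 against 83.7 to 85.3. High fish were F0_M_PH 12 in tsc22d3, at 234 CPM against 121 to 133, and F0_M_PH 22 in fkbp5, at 280 against 208 to 220. F0_F_SCA 16 was high in fkbp5, at 206 CPM against 70.9 to 83.4, and in pomca, at 7.67 against 2.56 to 2.93. F0_F_SCA 15 was high in nr3c1, at 128 CPM against 120 to 121, and F0_F_PH 9 in crhb, at 34.9 against 29.7 to 30.6. F1_F_SCA 7 was high in crhbp, at 63.4 CPM against 40.4 to 44.1, and F1_M_PH 6 in hsd11b2, at 5.80 against 5.003 to 5.07.

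The contrast of PH against SCA over both sexes differed between the 3 generations for fkbp5 (edgeR adjusted p = 0.0173), with higher means in PH founders and lower means in PH descendants. It also differed for hsd11b2 (edgeR adjusted p = 0.0387). The hsd11b2 call held in 30 of 54 alternatives and was lost on leaving out any of 19 single libraries. For both genes the F0 contrast includes the males, in which lane and arm cannot be told apart.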

How the results depend on the processing

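Single members were followed under the alternatives only in comparisons where their unadjusted p in the main edgeR fit was under 0.05, which gave 2200 values. Of these, 0 changed sign, 33 lost a call and 41 gained one. Values with a larger p, among them all of pomca, were not followed, so changes of sign there were not counted. The count of members called went from 1 to 0 in F0 females against males with no filter, without the libraries that stood apart and in PH fish only. With DESeq2 it went from 0 to 1 in F1 females, 1 in F1 males, 3 over both sexes of F1, 2 in F2 females and 2 over both sexes of F2, and from 1 to 2 in lineage F2 against F0. With all 48 libraries in the fit it went from 0 to 1 in F1 males, 3 over both sexes of F1, 1 in F2 females and 1 over both sexes of F2, and with limma voom to 1 over both sexes of F2. In the test of generations it went from 2 to 1 with no filter, without the 2 lowest fkbp5 libraries or without the 2 of lane 2, and to 0 with limma voom or without the libraries that stood apart, which gave 2 in lineage F2 against F0. Leaving out 1 library gave 0 to 1 in F0 females against males, F1 over both sexes (hsd11b2, without F1_F_SCA 4 or F1_M_SCA 10) and F2 over both sexes (fkbp5, without F2_F_PH 16 or F2_M_PH 11), 1 to 3 in the test of generations, 2 to 3 in descendants, 5 to 7 and 3 to 4 in control F1 and F2 against F0 and 1 to 2 in lineage F2 against F0. The cause was not tested. The 878 genes called in descendants were 387 to 1624 over the alternatives, the 877 of F0 females against males 13 to 1386, the 624 of F1 females against males 158 to 1466, the 123 of F1 over both sexes 60 to 378, the 193 of F2 over both sexes 55 to 1192, the 20 of F2 females against males 10 to 233, the 179 of the test of generations 60 to 249 and the 2052 of control F2 against F0 895 to 3594. The 12 of F1 females were 1 to 147, the 19 of F1 males 0 to 162, the 24 of F2 females 0 to 1251, the 3 of F2 males 0 to 122, and the 0 of F0 females, males and both sexes up to 32, 11 and 54.

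The replicate numbers that PH and SCA groups share (15 and 16 in F0 females, 17 in F0 males, 4 in F2 females) are too few to pair the samples, with correlations of deviations of 0.13, 0.13, -0.28 and 0.07. With these numbers as a replicate block in F0, 0 members were called, as without it. Small counts limit pomca, nr3c2, hsd11b2 and crhr1, with 3, 13, 15 and 21 reads in their poorest libraries.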
